A study of Mus musculus with 9 samples.

Results

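The 10 genes described here encode receptors for extracellular nucleotides and adenosine, together with the enzyme that removes the nucleotides. They were taken from the count table by gene symbol, and each of the 10 symbols matched 1 row among the 55471 genes of the table. Of these, 2 encode P2X receptors (P2rx4, P2rx7), 5 encode P2Y receptors (P2ry2, P2ry6, P2ry12, P2ry13, P2ry14), 2 encode adenosine receptors (Adora2a, Adora2b), and Entpd1 encodes CD39. RNA was sequenced from dendritic cells (DCs) grown from the bone marrow of WT C57BL/6 mice with GM-CSF and not sorted by surface markers. The cells were left unstimulated, activated with LPS, a bacterial outer membrane component sensed by a Toll-like receptor, or treated with IFN-β, a type I interferon, and were harvested after 6 h. There were 3 libraries in each of the 3 groups, named A, B and C in every group, and 9 in all. The comparisons ask how the activating and the antiviral stimulus each changed the RNA of these genes, and whether the 2 changes differed.

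ATP leaves damaged or activated cells and acts on neighbouring cells through P2X receptors, which are ion channels, and P2Y receptors, which signal through G proteins. CD39 cuts ATP and ADP to AMP, the ectoenzyme CD73 (Nt5e) turns AMP into adenosine, and adenosine then acts on its own G protein-coupled receptors. In DCs, extracellular ATP is known as a danger signal that can promote inflammasome activation, and adenosine acting through the products of Adora2a and Adora2b raises cyclic AMP and is known to restrain inflammatory cytokine production.

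Libraries held 33425803 to 43735199 counts on genes, and 16260 genes had enough counts to be tested, all 10 members among them. Levels are given as CPM, counts relative to the library size, which was corrected for composition by TMM factors. LPS-activated DCs had the lowest factors (0.783 to 0.841) and unstimulated DCs the highest (1.18 to 1.26), with IFN-β between them (0.977 to 1.02). Scaling by library size alone would move the median log2 fold change of all tested genes by -0.581 for LPS and by -0.307 for IFN-β. The members moved with it, by -0.596 to -0.58 for LPS and by -0.314 to -0.301 for IFN-β, so directions are stated relative to the bulk of the genes. All 7 genes of a dendritic cell list and all 7 of a macrophage or monocyte list were detected in every library, and genes of the T, B or NK cell list summed to at most 0.456 CPM. The summed level of the macrophage list was 11682 to 14943 CPM in unstimulated, 10328 to 13076 CPM in LPS-activated and 11569 to 13545 CPM in IFN-β-treated DCs. In RNA from whole cultures, fewer cells of a type and less RNA per cell cannot be told apart. The labels do not say whether the 3 libraries of a group came from separate cultures, so p-values measure the spread between these libraries, which may be technical.

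LPS changed all 10 genes, 5 to a higher and 5 to a lower level, at an adjusted p-value under 0.05 in edgeR's quasi-likelihood test. Over all tested genes 68.2% passed the same threshold, 32.8% higher and 35.4% lower, so a high count of calls is common in this comparison. The libraries of the 2 groups did not overlap for 9 of the 10 genes, against 72.4% of all tested genes. The median size of the log2 change was 1.02 over the 10 genes and 0.65 over all genes. IFN-β changed 7 of the 10, 6 to a higher level and 1, P2ry6, to a lower level, where 46.9% of all genes passed, 23.6% higher and 23.3% lower. Groups did not overlap for 7 of the 10 genes under IFN-β, against 58.1% of all genes, and the median size of the change was 0.69 against 0.35. With scaling by library size alone 3 members were higher and 6 lower with LPS, and 6 were higher and 3 lower with IFN-β. Over all 16260 tested genes, that scaling gave 12683 calls with LPS, 21.9% of them higher, and 9630 with IFN-β, 22.3% of them higher. The IFN-β response differed from the LPS response for 9 of the 10 genes, higher for 6 and lower for 3, against 49.1% of all genes (25.8% higher, 23.3% lower), and the 2 stimulated groups did not overlap for those 9 genes, against 56.8% of all genes. Both responses were measured from the same unstimulated libraries, so the difference between them equals a direct comparison of IFN-β-treated with LPS-activated DCs.

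**Figure D1:**
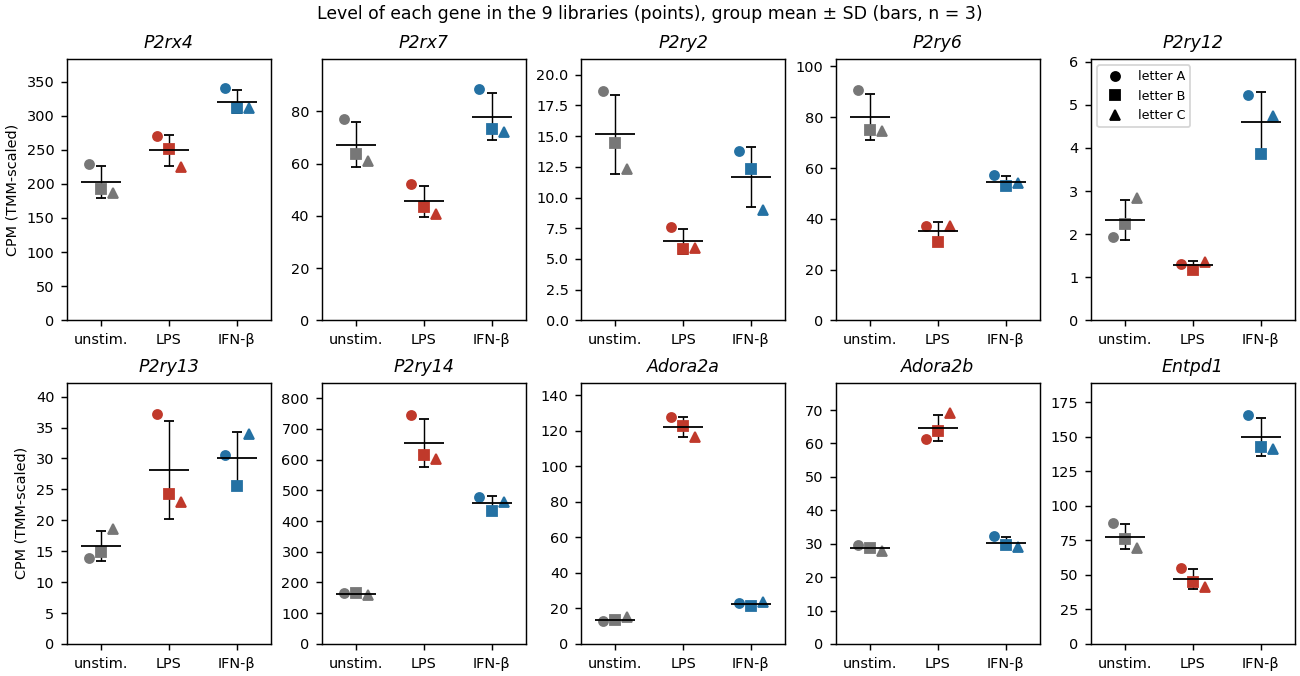
The level of each of the 10 genes in CPM (vertical axes, each starting at 0) is plotted for the 3 groups (horizontal axes); points are the 9 libraries, with a symbol for each letter, and bars are the group mean ± SD (n = 3). P2ry14 and Adora2a stand apart from the unstimulated group most clearly under LPS, and Entpd1 and P2ry12 are lowest under LPS and highest under IFN-β.

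**Figure D2:**
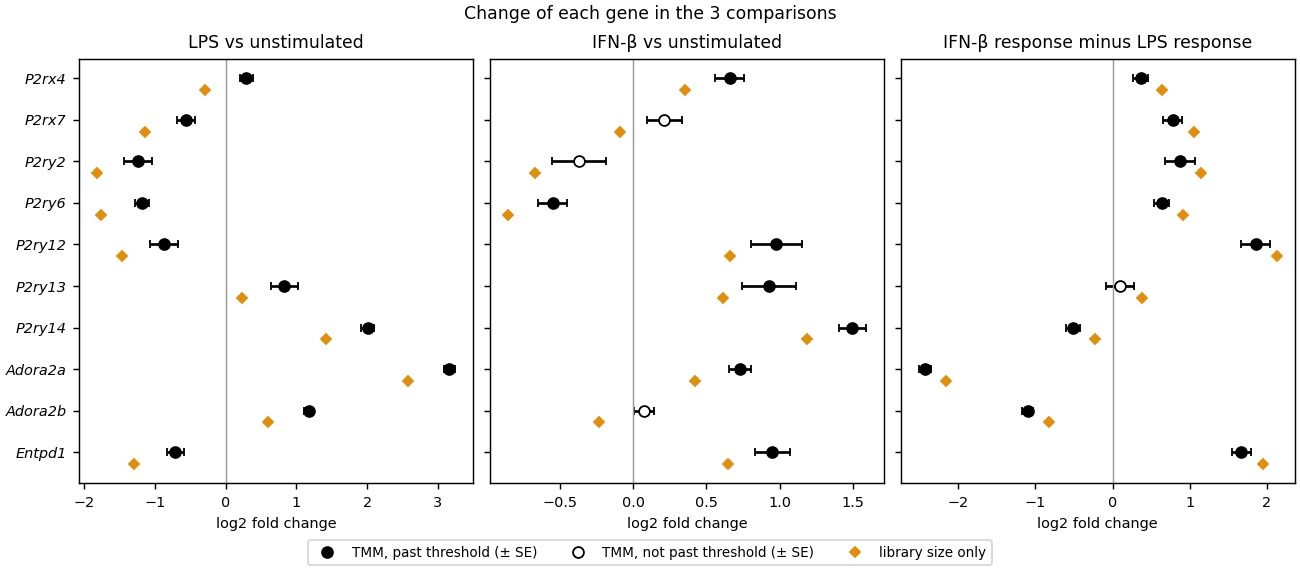
Log2 fold changes (horizontal axes) of the 10 genes in the 3 comparisons; circles are values with TMM factors ± SE (n = 3 libraries a group), filled where the adjusted p-value is under 0.05, and diamonds are values with scaling by library size alone. Without the composition factors all points move to one side, and P2rx4 under LPS and P2rx7 and Adora2b under IFN-β change sign.

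Entpd1 encodes CD39, the ectoenzyme at the head of the path from ATP to adenosine, and its RNA moved in opposite directions under the 2 stimuli. Its level was 87.4, 76.1 and 69.6 CPM in unstimulated DCs of letters A, B and C, 55.4, 45.1 and 41.3 CPM with LPS, and 166, 143 and 142 CPM with IFN-β. The 3 groups did not overlap, and the order of the groups was the same within each letter. LPS lowered Entpd1 by a log2 fold change of -0.72 ± 0.12 (SE) and IFN-β raised it by 0.95 ± 0.12, with edgeR adjusted p-values of 0.000304 and 0.000112. The difference between the responses was 1.67 ± 0.12 on the log2 scale (edgeR adjusted p = 1.62e-06). As a fitted fold, Entpd1 was 3.18-fold higher in IFN-β-treated than in LPS-activated DCs. Entpd1 lies on the plus strand at chr19:40612366-40741602 (GRCm38), and its nearest tested neighbour, Tctn3, which encodes a protein of the primary cilium, lies 133 bases away. Tctn3 also fell with LPS, with a log2 change of -1.14, and had a log2 change of -0.29 with IFN-β (edgeR adjusted p = 0.068), so the rise of Entpd1 under IFN-β had no matching call in Tctn3. The difference between the 2 responses was 0.85 for Tctn3 (edgeR adjusted p = 0.000258). On the other side of Entpd1, 89677 bases away, the tested neighbour Ccnj rose under both stimuli. Its log2 changes were 1.79 with LPS and 1.61 with IFN-β (edgeR adjusted p = 1.05e-06 and 1.14e-05), and its responses differed by -0.18 (edgeR adjusted p = 0.294). Whether the changes of Entpd1, Tctn3 and Ccnj differ from each other was not tested.

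The RefSeq table used here lists 2 start sites for Entpd1 in GRCm38, and the 250 bases before each are shown because its 2 responses oppose each other. The first, chr19:40612116-40612365, lies beside Tctn3 and has a GC content of 62.4%, and the second, chr19:40659520-40659769, has 47.2%. Capitals mark GAGGAAG, a binding motif of the myeloid factor PU.1.
Entpd1 first start site: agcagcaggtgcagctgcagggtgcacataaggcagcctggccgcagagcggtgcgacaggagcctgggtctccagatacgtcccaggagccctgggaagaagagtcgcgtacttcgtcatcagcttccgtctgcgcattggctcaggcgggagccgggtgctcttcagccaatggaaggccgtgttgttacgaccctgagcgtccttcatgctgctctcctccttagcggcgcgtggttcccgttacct
Entpd1 second start site: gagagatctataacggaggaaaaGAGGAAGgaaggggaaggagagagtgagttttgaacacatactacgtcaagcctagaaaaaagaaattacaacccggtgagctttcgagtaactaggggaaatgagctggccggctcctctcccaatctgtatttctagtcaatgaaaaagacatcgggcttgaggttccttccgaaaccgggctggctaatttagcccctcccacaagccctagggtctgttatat
The second window holds the PU.1 motif 227 bases before the start site, and the first holds none of the motifs searched. Counts per gene do not say which of the 2 start sites was used.

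The adenosine receptors held the largest change of the 10 genes. Adora2a, a receptor with high affinity for adenosine that is coupled to the stimulatory G protein, was at 12.7, 13.3 and 14.9 CPM in unstimulated DCs and at 128, 123 and 117 CPM with LPS. With IFN-β it was at 22.9, 21.4 and 23.8 CPM, and the 3 groups did not overlap. LPS raised Adora2a by 3.16 ± 0.08 on the log2 scale, a fitted fold of 8.95 (edgeR adjusted p = 1.06e-09). The change with IFN-β was 0.73 ± 0.08, 1.66-fold (edgeR adjusted p = 3.50e-05), and the response was lower than that to LPS by a log2 difference of -2.43 ± 0.08 (edgeR adjusted p = 1.07e-08). Adora2b, its close relative, which needs more adenosine to respond, was at 29.7, 28.8 and 27.7 CPM in unstimulated DCs and at 61.3, 63.7 and 69.0 CPM with LPS. Its rise with LPS was 1.17 ± 0.07 on the log2 scale (edgeR adjusted p = 1.26e-07). With IFN-β it was at 32.2, 29.5 and 29.0 CPM, which overlaps the unstimulated libraries, and the log2 change was 0.07 ± 0.07 (edgeR adjusted p = 0.422). That value was -0.23 with scaling by library size alone (edgeR adjusted p = 0.0263) and -0.0046 with upper-quartile factors, so its direction depends on the scaling, and over its 16 alternatives the adjusted p-value ran from 0.0263 to 0.964.

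Counts of one gene divided by counts of another in the same library do not depend on the scaling, and their changes between groups can be read without it, although a ratio is no comparison of levels because the transcripts differ in length. The ratio of Adora2a to Adora2b was 0.429 to 0.538 in unstimulated DCs, 1.69 to 2.09 with LPS and 0.711 to 0.821 with IFN-β, with no overlap between the groups. Adora2a therefore gained on Adora2b under both stimuli, and more under LPS. Next to Adora2a, at chr10:75316877-75334784 on the plus strand, the tested neighbours were Specc1l, which encodes a cytoskeletal protein, and the predicted gene Gm5779. Specc1l rose by 0.62 with LPS and 0.31 with IFN-β, and Gm5779, which lies 9688 bases away, rose by 3.09 with LPS and had a log2 change of 0.43 with IFN-β (edgeR adjusted p = 0.522). Specc1 and Zswim7, on either side of Adora2b at chr11:62248984-62266453, did not pass the threshold with LPS, with log2 changes of -0.21 and -0.09. With IFN-β Specc1 rose by 0.32 (edgeR adjusted p = 0.0216), and Zswim7 had a log2 change of -0.24 (edgeR adjusted p = 0.153). The difference between the responses was 0.53 for Specc1 (edgeR adjusted p = 0.00115) and -0.15 for Zswim7 (edgeR adjusted p = 0.383).

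**Figure D3:**
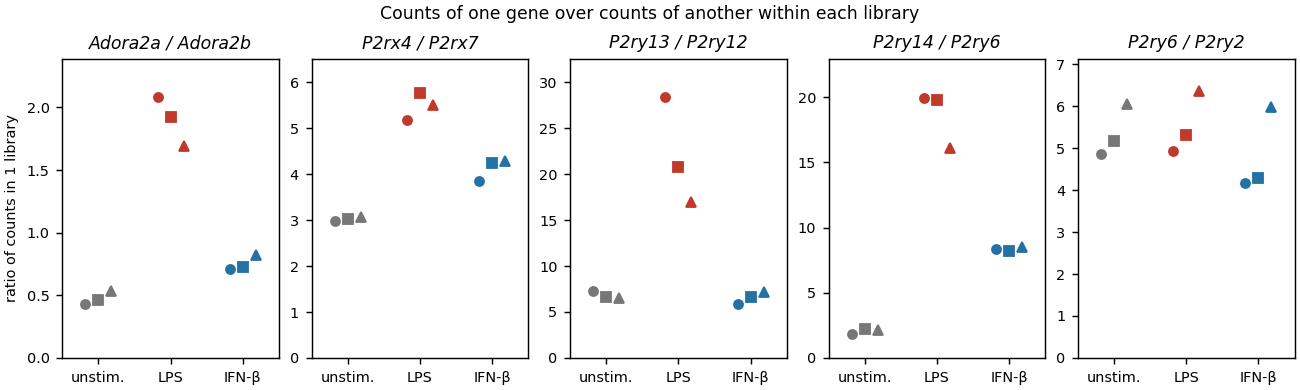
Counts of one gene divided by those of another in the same library (vertical axes, each starting at 0, no unit) in the 3 groups (horizontal axes); each point is 1 library, with a symbol for each letter. The groups are apart for Adora2a over Adora2b, P2rx4 over P2rx7 and P2ry14 over P2ry6, P2ry13 over P2ry12 is higher in the LPS libraries (16.9 to 28.4) than in the rest, and P2ry6 over P2ry2 overlaps in all groups.

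The P2X receptors are channels opened by ATP: P2rx7 needs high ATP and is known for driving inflammasome activation, and P2rx4 responds to lower ATP and lies largely in lysosomes. P2rx7 was at 77.2, 63.6 and 60.9 CPM in unstimulated DCs, at 52.2, 43.6 and 40.9 CPM with LPS and at 88.4, 73.2 and 72.2 CPM with IFN-β. The LPS libraries lay below all others, and the IFN-β libraries overlapped the unstimulated ones. P2rx7 fell with LPS by a log2 change of -0.56 ± 0.12 (edgeR adjusted p = 0.00179), and its IFN-β response was higher than its LPS response by 0.78 ± 0.12 (edgeR adjusted p = 0.000384). The change with IFN-β was 0.21 ± 0.12 (edgeR adjusted p = 0.172). Within the letters it was 0.20, 0.20 and 0.25, higher in 3 of 3, and in edgeR's model with the letters as a replicate block the change of 0.21 passed the threshold (adjusted p = 0.00202). With scaling by library size alone it was -0.09, and over the 16 alternatives the adjusted p-value ran from 0.00202 to 0.526.

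P2rx4 was at 230, 192 and 187 CPM in unstimulated DCs, at 271, 252 and 225 CPM with LPS and at 340, 311 and 311 CPM with IFN-β. The IFN-β libraries lay above all others, whereas the highest unstimulated library, letter A, exceeded the lowest LPS library, letter C. Within the letters, with TMM factors, P2rx4 was higher with LPS in 3 of 3, by 0.24, 0.39 and 0.26 on the log2 scale. IFN-β raised P2rx4 by 0.66 ± 0.10 on the log2 scale (edgeR adjusted p = 0.000317), and this response was 0.37 ± 0.10 higher than that to LPS (edgeR adjusted p = 0.00964). The LPS value of 0.29 ± 0.10 passed the threshold narrowly (edgeR adjusted p = 0.0197) and was the only call of the members that was lost when single libraries were left out. It reversed to -0.29 with scaling by library size alone (edgeR adjusted p = 0.00503) and was 0.20 with upper-quartile factors (edgeR adjusted p = 0.0511). It was no longer past the threshold without unstimulated B, unstimulated C, LPS A or LPS B, with log2 changes of 0.25, 0.23, 0.23 and 0.29 and edgeR adjusted p-values of 0.0831, 0.0753, 0.076 and 0.0515. Over the 16 alternatives the adjusted p-value ran from 0.00054 to 0.0831.

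P2rx7 (chr5:122643911-122691432) and P2rx4 (chr5:122707544-122729738) lie on the same strand with 16.1 kb between them. The ratio of P2rx4 to P2rx7 counts was 2.98 to 3.07 in unstimulated DCs, 5.18 to 5.78 with LPS and 3.85 to 4.30 with IFN-β, with no overlap. The neighbours thus shifted against each other in all 6 stimulated libraries, and the P2rx4 direction under LPS that the scaling leaves uncertain does not enter this ratio. The microRNA gene Mir8115 shares 119 exon bases with P2rx7 on the same strand and was not tested. Of the outer neighbours, Camkk2, a kinase of the AMPK pathway, had a log2 change of 0.37 with LPS, and Atp2a2, a calcium pump of the endoplasmic reticulum, one of 0.51.

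P2ry2 and P2ry6, both coupled to the G protein that activates phospholipase C, are receptors for ATP or UTP and for UDP, respectively. P2ry6 was at 90.6, 74.8 and 74.7 CPM in unstimulated DCs, at 37.3, 31.0 and 37.4 CPM with LPS and at 57.3, 52.8 and 53.9 CPM with IFN-β, and the groups did not overlap. It fell with LPS by a log2 change of -1.18 ± 0.10 and with IFN-β by -0.55 ± 0.10 (edgeR adjusted p = 1.37e-06 and 0.000914). The IFN-β value was 0.64 ± 0.10 above the LPS value (edgeR adjusted p = 0.000322). P2ry6 was thus the member called lower under both stimuli in the main fit, with TMM factors and without the replicate block. Its fall was larger with LPS. P2ry2 was at 18.7, 14.5 and 12.3 CPM in unstimulated DCs, at 7.57, 5.83 and 5.87 CPM with LPS and at 13.8, 12.3 and 9.0 CPM with IFN-β. Here the LPS libraries lay below all others and the IFN-β libraries overlapped the unstimulated ones. The log2 change of P2ry2 was -1.24 ± 0.19 with LPS (edgeR adjusted p = 0.000175) and -0.37 ± 0.18 with IFN-β (edgeR adjusted p = 0.124). Under IFN-β it was lower in 3 of 3 letters, by -0.44, -0.23 and -0.45, and edgeR's adjusted p-value was 0.00246 with the letters as a replicate block. It was also past the threshold without the low-count filter (edgeR adjusted p = 0.0347) and with scaling by library size alone, where the change was -0.67 (edgeR adjusted p = 0.00536), and the 16 alternatives ranged from 0.00246 to 0.406.

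P2ry6 (chr7:100937630-100974649) and P2ry2 (chr7:100996568-101012866) lie side by side on the minus strand, 21.9 kb apart. Their count ratio was 4.85 to 6.06 in unstimulated DCs, 4.93 to 6.37 with LPS and 4.16 to 5.99 with IFN-β. These ranges overlapped, unlike those of the P2X pair. Within the letters A, B and C the ratio went from 4.85, 5.17 and 6.06 in unstimulated DCs to 4.93, 5.33 and 6.37 with LPS, higher in 3 of 3, and to 4.16, 4.29 and 5.99 with IFN-β, lower in 3 of 3. The ratio was not tested. Fchsd2, the tested neighbour beyond P2ry2, had a log2 change of 0.71 with LPS.

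P2ry12 and P2ry13 are receptors for ADP, and P2ry14 is the receptor for UDP-glucose and related UDP sugars; all 3 are coupled to the inhibitory G protein. They lie in a row on the minus strand of chromosome 3 in GRCm38, P2ry14 at chr3:59113855-59153618, P2ry13 at chr3:59207892-59210882 and P2ry12 at chr3:59216272-59262871, with gaps of 54.3 and 5.39 kb. The 250 bases before a RefSeq start site of each are shown because these neighbours responded differently. P2ry14 has 4 start sites in the RefSeq table, and the farthest upstream is shown. The windows of its other start sites hold none of the motifs searched. Capitals mark the PU.1 motif GAGGAAG and the AP-1 motif TGACTCA.
P2ry14, chr3:59153493-59153742: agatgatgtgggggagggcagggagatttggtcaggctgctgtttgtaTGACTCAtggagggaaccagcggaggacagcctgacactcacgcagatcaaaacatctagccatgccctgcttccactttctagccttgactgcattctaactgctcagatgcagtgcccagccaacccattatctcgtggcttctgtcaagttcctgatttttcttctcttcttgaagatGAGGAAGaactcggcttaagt
P2ry13, chr3:59210883-59211132: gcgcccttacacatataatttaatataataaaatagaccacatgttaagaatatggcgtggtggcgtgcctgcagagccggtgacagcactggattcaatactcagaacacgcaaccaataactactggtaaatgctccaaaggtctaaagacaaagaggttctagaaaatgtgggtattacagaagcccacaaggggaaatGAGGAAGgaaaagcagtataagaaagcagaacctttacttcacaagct
P2ry12, chr3:59262986-59263235: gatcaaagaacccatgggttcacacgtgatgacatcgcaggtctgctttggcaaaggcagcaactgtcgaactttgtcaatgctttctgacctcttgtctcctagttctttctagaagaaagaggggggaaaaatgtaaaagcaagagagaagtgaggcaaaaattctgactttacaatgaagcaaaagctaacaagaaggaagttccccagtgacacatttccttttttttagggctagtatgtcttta
The P2ry14 window shown holds the AP-1 motif 202 bases and the PU.1 motif 21 bases before the start site. P2ry13 holds the PU.1 motif 48 bases before its start site, and the P2ry12 window holds neither.

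The motifs were searched on both strands in the 250 bases before all 32851 RefSeq start sites, and 8 of the 10 members had windows, 14 in all, while P2ry6 and Adora2a had none. The PU.1 motif was found in 10.6% of all windows and in a single window of each of 3 members (Entpd1, P2ry13, P2ry14). The AP-1 motif was found in 4.46% and in a single window of each of 2 members (P2rx7, P2ry14). The interferon-stimulated response element, searched as GAAANNGAA, the STAT site TTCNNNGAA, the NF-kB site GGGACTTTC and the cyclic AMP response element TGACGTCA were found in 7.13%, 7.02%, 0.289% and 1.55% of all windows and in no member window. The AP-1 and PU.1 motifs were added after the windows had been read, so their matches are a description only.

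P2ry14 had the highest count of the 10 genes in stimulated DCs. Its level was 164, 164 and 158 CPM in unstimulated DCs, 744, 613 and 602 CPM with LPS and 479, 433 and 461 CPM with IFN-β, with no overlap between groups. The rise was 2.01 ± 0.09 on the log2 scale with LPS, 4.02-fold, and 1.5 ± 0.09 with IFN-β, 2.82-fold (edgeR adjusted p = 2.34e-08 and 1.43e-06). The IFN-β response was the smaller by -0.51 ± 0.09 (edgeR adjusted p = 0.000763). Set against P2ry6, the receptor for the related nucleotide UDP, the P2ry14 count ratio rose from 1.81 to 2.19 in unstimulated DCs to 16.1 to 19.9 with LPS and 8.20 to 8.54 with IFN-β.

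P2ry13 was at 13.9, 14.9 and 18.5 CPM in unstimulated DCs, at 37.2, 24.2 and 22.9 CPM with LPS and at 30.6, 25.5 and 33.9 CPM with IFN-β. Both stimulated groups lay above the unstimulated group, and they overlapped each other. The log2 change was 0.83 ± 0.19 with LPS and 0.93 ± 0.19 with IFN-β (edgeR adjusted p = 0.00238 and 0.00222). The 3 letters differed under LPS, with changes of 1.42, 0.70 and 0.31, and the LPS value was 0.23 with scaling by library size alone (edgeR adjusted p = 0.236), where the 16 alternatives ranged from 2.28e-07 to 0.236. A difference between the 2 responses was not detected, at 0.10 ± 0.18 (edgeR adjusted p = 0.692).

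P2ry12, a receptor known from platelets and microglia, had the fewest counts of the members, with 76, 100 and 126 counts in the unstimulated libraries, 37, 40 and 44 with LPS and 223, 145 and 172 with IFN-β. In CPM these were 1.93, 2.25 and 2.84, then 1.31, 1.17 and 1.35, then 5.22, 3.85 and 4.75, and the groups did not overlap. P2ry12 fell with LPS by a log2 change of -0.88 ± 0.20 and rose with IFN-β by 0.98 ± 0.18 (edgeR adjusted p = 0.00217 and 0.00108). The difference of 1.85 ± 0.19 (edgeR adjusted p = 1.93e-05) was the largest of the 6 that were higher with IFN-β. The ratio of P2ry13 to P2ry12 counts was 6.52 to 7.24 in unstimulated DCs, 16.9 to 28.4 with LPS and 5.86 to 7.15 with IFN-β. The LPS libraries lay above the rest, and the other two groups overlapped, so the neighbours moved apart in the LPS libraries.

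P2ry12 is known from cells other than DCs, so their markers are given. Of the microglia list Sall1 was at most 0.0677 CPM in any library and Siglech at most 0.0253 CPM, and Tmem119 was at 4.0 to 6.49 CPM in unstimulated DCs, 0.318 to 0.816 CPM with LPS and 1.62 to 2.69 CPM with IFN-β. The 5 genes of that list summed to 116 to 141, 79.1 to 94.0 and 116 to 134 CPM in the 3 groups, 3 of the 5 being detected in all libraries. Fcrls of the same list was at 43.2 to 46.5 CPM, 19.3 to 21.1 CPM and 24.2 to 30.9 CPM in the 3 groups. Of the platelet list Gp9 was at most 0.0708 CPM and Gp1ba at most 0.203 CPM. Treml1 was at 1.06 to 1.67 CPM in unstimulated DCs, 0.0354 to 0.461 CPM with LPS and 0.744 to 1.24 CPM with IFN-β, and Gp6 at 0.0674 to 0.316, 9.64 to 16.6 and 1.05 to 3.92 CPM. The 7 platelet genes summed to 95.4 to 126 CPM in unstimulated, 134 to 166 CPM in LPS-activated and 84.1 to 115 CPM in IFN-β-treated DCs, mostly from Pf4. With LPS, where P2ry12 was lowest, the microglia sum and Treml1 were lower and the platelet sum and Gp6 higher than in unstimulated DCs, without overlap, and the part of other cells in the P2ry12 values was not tested. All 3 receptors of this row lie inside Med12l, a gene of the opposite strand that encodes a Mediator subunit, and P2ry12 shares 9 exon bases with it. Med12l was at 1.24 to 3.81 CPM over the libraries, and its log2 change was 1.05 ± 0.20 with LPS, opposite to P2ry12, and 0.39 ± 0.21 with IFN-β (edgeR adjusted p = 0.000833 and 0.147). Since the strand setting of the counting was not stated, reads of the 2 genes cannot be told apart where they overlap. On the far sides of the row, the orphan receptor Gpr171 next to P2ry14 had a log2 change of -0.80 with LPS and 0.08 with IFN-β (edgeR adjusted p = 0.000197 and 0.64). The predicted gene Gm8276 next to P2ry12 had log2 changes of 0.62 and -0.56, which did not pass the threshold. The difference between its responses was -1.18 (edgeR adjusted p = 0.0439).

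Levels of different genes can be compared only per length. With the union of annotated exons as length, P2rx4 (28.9 ± 3.3 CPM per kb, SD, n = 3) and P2ry6 (27.7 ± 3.2) led in unstimulated DCs and overlapped each other. They were followed by Adora2b, P2ry14, Entpd1 and P2rx7, of which Entpd1 overlapped Adora2b, P2ry14 and P2rx7. Adora2a and P2ry2 overlapped further down, and P2ry12 was last at 0.918 ± 0.183 CPM per kb. With LPS the order was led by P2ry14 (59.0 ± 7.1 CPM per kb), and Adora2a (40.0 ± 1.8) had passed from the eighth to the second place, where it overlapped P2rx4 (35.4 ± 3.3). With IFN-β P2rx4 (45.6 ± 2.4 CPM per kb) and P2ry14 (41.4 ± 2.1) led without overlap, and Entpd1 (26.9 ± 2.4) was in the third place. Of neighbours in these orders, Adora2b and P2rx4, P2ry6 and P2ry13, P2ry13 and Entpd1, and Entpd1 and P2rx7 also overlapped with LPS, and P2rx7 and P2ry13 with IFN-β. The place of P2ry14 depends on the length used: its exon union of 11.1 kb holds a retained-intron transcript, whereas its longest protein-coding transcript has 2.48 kb. Per kb of that transcript, an alternative chosen after the data were seen, P2ry14 was at 65.5 ± 1.4, 264 ± 32 and 185 ± 9 CPM in the 3 groups, second to P2rx4 (75.2 ± 8.6) in unstimulated DCs and first in both stimulated groups. With the longest protein-coding transcript of each gene as length, other places changed too. P2ry6 (41.1 ± 4.7) was then in the third place in unstimulated DCs, without overlap with P2rx4 or P2ry14. Adora2a (47.2 ± 2.2) was in the third place with LPS, below P2rx4 (92.1 ± 8.5) without overlap. P2ry2 and P2ry12 held the last 2 places in all 3 groups by both lengths.

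Profiles over the 9 libraries were compared as centred log2(CPM + 0.5) values, and likeness was measured as the root mean square (RMS) difference over the 16259 other tested genes. The nearest genes to Adora2a were Procr, the endothelial protein C receptor, and Tnfaip3, an inhibitor of NF-kB signalling, at RMS differences of 0.142 and 0.150. Adora2b was nearest to Gstt4 and Prdm1, the latter a transcriptional repressor, at 0.0694 and 0.0711. P2ry14 was nearest to Frmd4a and 4931406G06Rik (0.0656 and 0.0715), P2rx4 to Aifm2 and Rsrp1 (0.0639 and 0.0734), and P2rx7 to Bex6 and Zfp385a (0.0618 and 0.0743). For P2ry6 the nearest were Snx14 and Zfp706 (0.0471 and 0.0759), for P2ry2 Apln and Cdc42ep3 (0.0979 and 0.098), and for P2ry13 Unc45b and Gm42587 (0.154 and 0.160). P2ry12 was nearest to the clock gene Per2 and to Dab2ip (0.114 and 0.118), and Entpd1 to Pkdcc and Mak (0.130 and 0.132). Of the members, Entpd1 was the nearest to P2ry12, as the 12th gene in order, and P2ry12 the nearest to Entpd1, as the 29th, at an RMS difference of 0.233.

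Around the members, 53 genes of 7 lists cover the remaining receptors, ectoenzymes, release channels, transporters, salvage enzymes and signalling partners. Of these, 42 were tested. LPS changed 37 of the 42, 16 higher and 21 lower, and IFN-β changed 22, 10 higher and 12 lower, and the 2 responses differed for 28, 17 of them higher with IFN-β. Over all tested genes 68.2%, 46.9% and 49.1% passed in these comparisons, and the counts of the single lists given next stand against the same shares. The median size of the log2 change was 0.96, 0.38 and 0.66 in these comparisons, beside 0.65, 0.35 and 0.38 over all genes. With scaling by library size alone, LPS raised 9 of these genes and lowered 26, and IFN-β raised 8 and lowered 24. Of all 16260 tested genes 12683 and 9630 were then called, 21.9% and 22.3% of these calls being higher.

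Among the other receptors most were scarce. Of 5 other P2X genes 2 were tested, and P2rx1 rose with LPS (log2 change 1.46 ± 0.31, to a mean of 0.941 CPM). Of 4 other P2Y genes 3 were tested; P2ry1, a further ADP receptor, fell with LPS (log2 change -2.46 ± 0.18) and with IFN-β (-0.54 ± 0.16), and P2ry10, a receptor for lysophosphatidylserine, fell with LPS (-0.86 ± 0.22). P2ry1 and P2ry12, both ADP receptors, thus had opposite calls under IFN-β. Adora3, an adenosine receptor coupled to the inhibitory G protein, fell with LPS (-1.32 ± 0.19) and was at 1.76 CPM in unstimulated DCs, and Adora1 had a single count in the 9 libraries.

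Of 13 other ectoenzymes 8 were tested, and LPS changed 7 (5 higher, 2 lower) and IFN-β 6 (4 higher, 2 lower). Nt5e, which encodes CD73, the step after CD39, had 226, 240 and 469 counts in unstimulated DCs, 17, 15 and 42 with LPS and 123, 87 and 126 with IFN-β. The log2 change of Nt5e was -3.21 ± 0.39 with LPS and -1.32 ± 0.33 with IFN-β (edgeR adjusted p = 2.57e-05 and 0.00695), so under IFN-β CD39 and CD73 RNA moved in opposite directions. The ratio of Entpd1 to Nt5e counts was 6.58 to 15.3 in unstimulated DCs, 32.0 to 103 with LPS and 40.7 to 61.8 with IFN-β, higher in both stimulated groups without overlap. Enpp4, an ectophosphodiesterase that acts on dinucleotides, went from 1.44 CPM in unstimulated DCs to 103 CPM with LPS and 56.6 CPM with IFN-β, log2 changes of 6.16 ± 0.16 and 5.30 ± 0.16. Cd38, which consumes NAD, rose by 3.14 ± 0.25 with LPS and 0.96 ± 0.24 with IFN-β. Acpp, prostatic acid phosphatase, which can dephosphorylate AMP, was named after its values were seen: it rose by 2.5 with LPS and fell by a log2 change of -0.56 with IFN-β.

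Of 8 release channels and transporters 7 were tested, and LPS changed 6 (3 higher, 3 lower) and IFN-β 3 (1 higher, 2 lower). Gja1, a connexin, rose with LPS by 3.02 ± 0.31 but only to 1.54 CPM, and Slc17a9, the vesicular nucleotide transporter, fell with LPS (-2.0 ± 0.27) and IFN-β (-1.5 ± 0.25). Lrrc8c, a subunit of volume-regulated anion channels, rose by 1.43 ± 0.10 and 0.77 ± 0.10. Abcc1, an export pump, fell with IFN-β (-0.69 ± 0.20). With LPS Abcc1 was called higher (0.56 ± 0.20, edgeR adjusted p = 0.0265), although the LPS and unstimulated libraries overlapped. All 10 genes of adenosine uptake and salvage were tested, and LPS changed 9 (3 higher, 6 lower) and IFN-β 7 (3 higher, 4 lower). Slc28a2, a concentrative nucleoside transporter, rose by 4.99 ± 0.62 and 3.02 ± 0.59 with wide spread between letters, from 181.6 CPM in letter A to 51.1 CPM in letter C with LPS. Pnp, purine nucleoside phosphorylase, rose by 3.23 ± 0.15 and 2.57 ± 0.15, and Slc29a2, an equilibrative nucleoside transporter, fell under both (-2.77 ± 0.33 and -1.42 ± 0.27).

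All 11 signalling partners were tested, and LPS changed 11 (4 higher, 7 lower) and IFN-β 5 (2 higher, 3 lower). Plcb2, a phospholipase C of the pathway used by P2ry2 and P2ry6, fell with LPS (-2.87 ± 0.17), the same direction as those receptors, and with IFN-β (-0.41 ± 0.15). The phosphodiesterases that remove cyclic AMP split under LPS, with Pde4b rising by 2.01 ± 0.07 and Pde4d falling (-2.06 ± 0.23). With IFN-β the G protein subunits Gnai3 and Gna11 changed by 0.37 ± 0.07 and -0.34 ± 0.11.

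**Figure D4:**
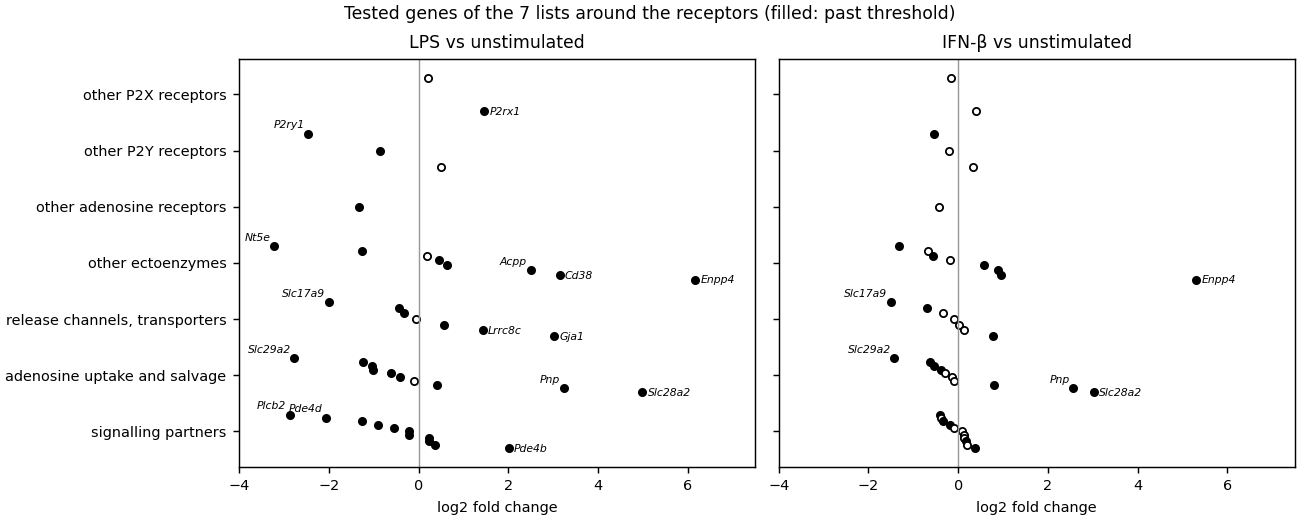
Log2 fold changes with LPS (left) and IFN-β (right) (horizontal axes) of the 42 tested genes of the 7 lists (vertical axis); each point is 1 gene, filled where the edgeR adjusted p-value is under 0.05, and called genes with a change over 1.4 in size are named. Enpp4, Slc28a2 and Pnp lie far to the right in both panels, and the points spread less with IFN-β; with scaling by library size alone the genes shift to the left and more of them lie below 0.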

How the data were processed

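RNA was measured in 9 libraries of unsorted mouse DCs. Per the labels and the study's methods, the authors depleted ribosomal RNA, trimmed reads with Trim Galore 0.6.0, mapped them with STAR (2.7.8a per the submitters' processing notes) to GRCm38 and deposited raw counts per gene on GENCODE genes. Which strand was counted is not given in the sources used here. Counts were analysed with edgeR 4.0.16 in R 4.3.3. TMM factors, quasi-likelihood F-tests and Benjamini-Hochberg adjustment with a threshold of 0.05 follow the study's methods, whereas filterByExpr, which left 16260 genes, and 1 term per condition over all 9 libraries were chosen here. The SE is the log2 fold change divided by the square root of F. Gene models, neighbours and lengths came from GENCODE M21 (55144 of 55471 identifiers matched), and upstream sequences from RefSeq (GRCm38.p6). On simulated data for LPS against unstimulated, 169 of 200 changed genes (84.5%) were recovered among 15949 genes, and 8.15% of calls were false.

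The members and lists were chosen with earlier results of these data known. Genes named beside the members were up to 3 per list with the largest called change in the LPS and IFN-β comparisons, overlapping or adjacent tested genes, and the 2 nearest profiles. The neighbour of P2ry6 on its other side is not reported here. After group means were subtracted, libraries with the same letter correlated across genes at 0.134 to 0.546 (9 of 9 pairs above 0.1; 0 of 18 pairs with different letters), so the letters were taken to pair the libraries and entered as a replicate block in an alternative fit. The alternatives were DESeq2 1.42.0, scaling by upper-quartile factors or by library size only, no low-count filter, at least 10 counts in every library, the 2 compared groups alone, the block, and each library left out. Library totals set the precision: values of few counts, such as those of P2ry12, are the least precise, and without molecular identifiers duplicate reads stay in the counts.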

Additional observations from a re-analysis of the deposited data

Results flagged for a closer look

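P2ry12 and Entpd1 were lowered by LPS and raised by IFN-β, with each call and the test of the difference past the threshold in edgeR. Measured from unstimulated DCs, the change with IFN-β was above that with LPS by a log2 difference of 1.85 for P2ry12 and 1.67 for Entpd1, and within the letters the difference was 1.72 to 2.0 and 1.58 to 1.78, higher in 3 of 3 for both genes. Of the 10 members these were the 2 with opposite calls in the model without the block; with the letters as a replicate block P2rx7 also had them, with log2 changes of -0.56 with LPS and 0.21 with IFN-β. P2ry12 rests on 37 to 223 counts a library and Entpd1 on 1345 to 7078.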

How the results depend on the processing

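Of the 30 member changes, all 30 kept their direction and their side of the threshold with DESeq2, with at least 10 counts in every library and with the 2 compared groups alone, and 25 did with scaling by library size alone. Under the latter, P2rx4 with LPS (-0.29) and P2rx7 (-0.0902) and Adora2b (-0.23) with IFN-β reversed on the log2 scale, as did Adora2b with IFN-β (-0.0046) with upper-quartile factors. Library size only also left 21.9% of LPS calls and 22.3% of IFN-β calls over all genes higher, where TMM gave 48.1% and 50.3%, and 77.9% against 52.5% for the difference. Members then split into 3 higher and 6 lower with LPS. The P2ry13 difference between the responses, never past the threshold in the fits that left out a library, ran from -0.0368 to 0.34 in them, with -0.0063 without LPS B, -0.0368 without LPS C and -5.9e-05 without IFN-β C.

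With the letters as a replicate block the counts of members called were 10 with LPS, 9 with IFN-β and 9 for the difference. Calls also rose over all 16260 tested genes, to 11950, 9151 and 9425 from 11084, 7631 and 7989 without the block. Of the member calls, none changed besides P2rx7 and P2ry2 with IFN-β. Leaving out 1 library at a time gave 9 to 10 members called with LPS, 7 to 7 with IFN-β and 9 to 9 for the difference. Of the genes of the lists, 34 to 38, 17 to 22 and 26 to 31 were called. Those fits tested 16503 to 16656 genes. Over all of these, 10455 to 11234 were called with LPS, 6467 to 7742 with IFN-β and 6858 to 8049 for the difference. Depth limits P2ry12 most, with 37 counts in its lowest library.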
